A study of Mus musculus with 30 samples.

Results

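Fetal lung was compared between litters whose dams were given 5 mg/kg/day of perfluorooctane sulfonate (PFOS) and litters whose dams were given 0 mg/kg/day. All lung arrays labelled with either dose were taken, which gave 10 of the 30 arrays of the series, with 5 exposed and 5 unexposed litters. PFOS is a persistent fluorinated surfactant, and the comparison asks which transcripts of the lung differ late in gestation after exposure through the dam. Dams were timed-pregnant CD-1 mice, an outbred stock, and were dosed by mouth from gestation day 1 to 17 with the potassium salt or with the 0.5% Tween 20 vehicle, which every group received. Lungs were taken on day 18. Each array holds a pool of RNA from 3 fetuses of 1 litter, so differences between fetuses of a litter were not measured. The other arrays are of lung at 10 mg/kg/day and of liver at the same 3 doses. Levels are log2 array signals, each gene is read from its brightest probe set, and a change is the mean at 5 minus the mean at 0 mg/kg/day with n = 5 litters per group.

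As background, PFOS activates PPAR alpha, a nuclear receptor that pairs with a retinoid X receptor and switches on genes of fatty acid oxidation, best known in rodent liver. Its targets include omega-hydroxylases of the Cyp4a family, which oxidise the far end of a fatty acid, and the peroxisomal enzymes that shorten long and dicarboxylic fatty acids. In the lung near birth, alveolar type 2 cells make surfactant from phospholipid and surfactant proteins, and type 1 cells form the thin gas exchange surface.

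Defining lung transcripts were high in all 10 arrays. Sftpc, a surfactant protein made by type 2 cells, lay between 13.52 and 13.61 in the exposed lungs and between 13.53 and 13.60 in the unexposed lungs, against 4.22 to 6.77 in exposed and 4.45 to 6.27 in unexposed fetal livers. Scgb1a1, the main secretory protein of club cells, lay between 12.70 and 12.92 in exposed and between 12.67 and 12.94 in unexposed lungs. Pairs of arrays correlated with r from 0.977 to 0.992 within the exposed group and from 0.979 to 0.991 within the unexposed group, over all probe sets of the array.

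The lungs of litter 1 stood apart in both groups. Serpina6, a hepatocyte product that binds corticosteroids, was at 10.26 in exposed litter 1 and between 3.21 and 5.38 in the other 4 exposed litters. It was at 10.94 in unexposed litter 1 and between 3.12 and 4.76 in the other 4 unexposed litters, while exposed fetal livers lay between 6.0 and 9.16 and unexposed ones between 7.56 and 8.83. Both lungs of litter 1 thus held more of this transcript than any fetal liver of either dose. Cyp2c29, a drug-metabolising enzyme of liver, was at 10.30 in exposed litter 1, against 4.44 to 5.78 in the other 4 exposed litters, and at 8.84 in unexposed litter 1, against 3.54 to 4.12 in the other 4. Afp, the fetal albumin, was lowest in litter 1 of both groups, at 9.63 in exposed and 8.29 in unexposed litter 1, where the other exposed lungs lay between 10.90 and 11.51 and the other unexposed lungs between 9.91 and 11.20. Of 18193 genes, 22 in the exposed and 28 in the unexposed litter 1 exceeded all other litters of their group by more than 2 on the log2 scale, and 19 of them were the same genes. Xist, the transcript of the inactive X chromosome, was added after its values were seen. It stood at 5.56 in exposed and 5.38 in unexposed litter 1, against 9.04 to 11.05 and 9.20 to 10.75 in the other litters. Eif2s3y, a gene of the Y chromosome, was highest in litter 1, at 7.62 in exposed and 7.06 in unexposed lungs. The other exposed lungs lay between 1.71 and 6.63 and the other unexposed ones between 1.44 and 6.80. Livers numbered 1 were also low in Xist, at 4.80 in exposed and 5.82 in unexposed. Whether the sex of the pooled fetuses accounts for the Xist levels was not tested. Whether the 2 arrays labelled litter 1 hold what their labels say was not tested. The calls and some gene lists and single genes are therefore also given without litter 1 of both groups, which leaves 4 litters against 4. Values given with all litters alone can still be moved by this pair.

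Cyp4a14 and Ehhadh rose in exposed fetal lung, and no gene was called lower. A probe set shared by Cyp4a31 and Cyp4a10 was also called higher, in the fit of probe sets and not of genes. Limma, a linear model with an empirical Bayes estimate of the spread, called 2 of 12897 genes at an adjusted p under 0.05, or 0.0155%, both of them higher. Over all 45037 probe sets that are not array controls, without a filter on dim signals, it called 3, or 0.00666%. At an unadjusted p under 0.05 there were 596 genes (4.62%), of which 369 were higher (2.86%) and 227 lower (1.76%). These shares over all genes tested are the background for the counts of each list below. Among the probe sets 2058 had such a p (4.57%). Without litter 1 of both groups, 1 gene was called (0.00775%) and 494 had an unadjusted p under 0.05 (3.83%).

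Cyp4a14, an omega-hydroxylase of fatty acids, had levels of 6.92, 6.88, 6.92, 6.33 and 7.24 in exposed litters 1 to 5, against 3.08, 3.54, 3.61, 4.18 and 4.83 in unexposed litters 1 to 5. Every exposed litter was above every unexposed one, and the unexposed litters spread more widely, with litter 1 the lowest of them. The mean was 6.86 ± 0.33 in exposed and 3.85 ± 0.67 in unexposed lungs (SD, n = 5 litters each). The change was 3.01 (SE 0.33, 95% interval 2.30 to 3.71, limma adjusted p = 0.00163). The 40th percentile of all probe sets lay between 4.16 and 4.22 on the lung arrays, so 3 unexposed litters were below that range and 1 was inside it, and the gene entered the test through its exposed litters. No fold is given, since its size would rest on unexposed signals this dim. Without litter 1 of both groups the change was 2.80 and the adjusted p was 0.0257.

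The probe set shared by Cyp4a31 and Cyp4a10, close relatives of Cyp4a14 whose signals it cannot tell apart, had levels of 8.65, 7.2, 7.04, 6.42 and 7.46 in exposed litters 1 to 5, against 4.95, 3.87, 4.65, 4.76 and 5.05 in unexposed litters 1 to 5. The groups did not overlap, and exposed litter 1 was the highest. The change was 2.70 in the fit of all probe sets (limma adjusted p = 0.00936), and 2.45 without litter 1 of both groups (adjusted p = 0.0210). The probe set was not called with the replicate number as a block, nor with a trended and robust variance model, under which no probe set was called. Cyp4a12a, another omega-hydroxylase of this family, averaged 4.16 ± 0.47 in exposed and 3.21 ± 0.41 in unexposed lungs (SD, n = 5 litters each), with overlapping groups. Its change was 0.94 (95% interval 0.39 to 1.5, limma adjusted p = 0.732), and it was not called.

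Ehhadh, the bifunctional enzyme of the peroxisomal pathway, had levels of 6.66, 7.0, 6.52, 5.94 and 7.08 in exposed litters 1 to 5, against 5.03, 4.46, 4.68, 4.99 and 4.83 in unexposed litters 1 to 5. The lowest exposed litter, litter 4, was above the highest unexposed one. The mean was 6.64 ± 0.46 in exposed and 4.80 ± 0.23 in unexposed lungs (SD, n = 5 litters each). The change was 1.85 (SE 0.24, 95% interval 1.33 to 2.36, limma adjusted p = 0.00760), a fold of 3.60 with an interval of 2.52 to 5.14. Without litter 1 of both groups it was 1.90 and no longer called, at an adjusted p of 0.0707. A two-sided exact permutation test over all divisions of the 10 litters into 5 and 5 gave p = 0.007937 for Ehhadh and for Cyp4a14. Over the 70 divisions without litter 1 of both groups it gave 0.02857. Each is the smallest p the test can give, which any gene with groups apart reaches. The test was run only on the called genes and repeats the same contrast, so it is not independent of the call.

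Another 3 lipid genes with changes above 1 stood higher in every exposed litter than in any unexposed one without being called. Acaa1b, a peroxisomal thiolase, had levels of 7.49, 6.51, 6.59, 5.57 and 6.95 in exposed litters 1 to 5, against 5.52, 4.89, 4.38, 4.89 and 4.45 in unexposed litters 1 to 5. Exposed litter 4 lay only narrowly above the highest unexposed litter. The change was 1.79 (95% interval 1.13 to 2.45, limma adjusted p = 0.132), and without exposed litter 4 it was 2.06 with an adjusted p of 0.00773. The change of Acaa1b was 1.75 without litter 1 of both groups (adjusted p = 0.110). Fabp1, the fatty acid carrier of liver and gut cells, had levels of 9.76, 9.23, 8.93, 8.07 and 9.62 in exposed litters 1 to 5, against 8.04, 5.94, 5.48, 7.23 and 6.83 in unexposed litters 1 to 5. Litter 1 was the highest of both groups. The change was 2.42 (95% interval 1.30 to 3.53, limma adjusted p = 0.667), with a second probe set at 2.29 whose groups overlapped. It was 2.59 for the brighter Fabp1 probe set without litter 1 of both groups (adjusted p = 0.423). Slc27a2, which activates very long chain fatty acids, had levels of 7.30, 6.23, 6.34, 5.93 and 6.59 in exposed litters 1 to 5, against 5.71, 4.54, 5.09, 5.82 and 5.26 in unexposed litters 1 to 5. The change was 1.19 (95% interval 0.55 to 1.84, limma adjusted p = 0.730), and its smallest exposed value was again that of litter 4. The change of Slc27a2 was 1.09 without litter 1 of both groups (adjusted p = 0.814). Of all genes tested, 71 had every exposed litter above every unexposed one (0.551%) and 37 every exposed litter below (0.287%), together 108 (0.837%). With 4 litters against 4, without litter 1 of both groups, 320 genes had groups apart (2.48%).

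**Figure D1:**
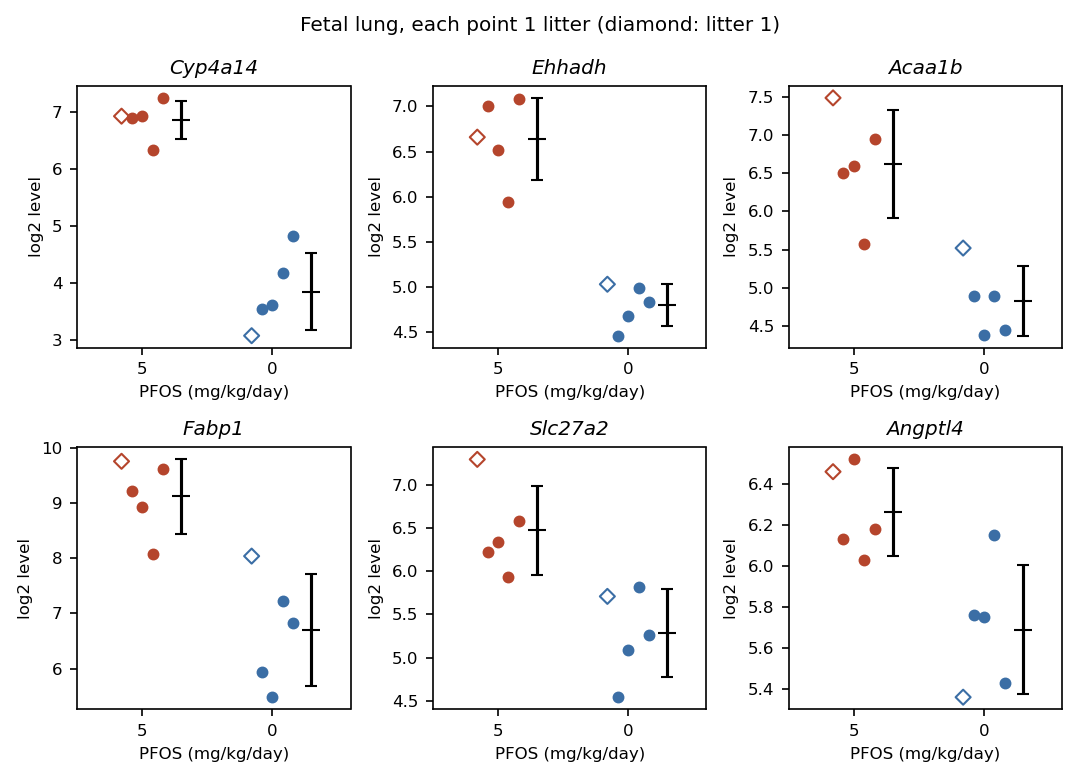
Log2 level (y axis, a different range in each panel) of 6 lipid genes in fetal lung at 5 and 0 mg/kg/day (x axis), with 1 point per litter, litter 1 as an open diamond, and a dash with whiskers for the mean ± SD of 5 litters. The groups lie apart for all but Angptl4, whose exposed litters start at 6.03 while 1 unexposed litter reached 6.15.

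Promoter sequence is shown for Ehhadh, the called gene with an entry, and for Fabp1, the one promoter here that holds a full repeat of the site PPAR alpha is known to bind. Of the 5 genes Cyp4a14, Ehhadh, Acaa1b, Fabp1 and Slc27a2, 4 matched an entry of RefSeq's promoter table (build GRCm38.p6), and the 250 bases before the annotated start were read, 5′ to 3′ on the gene's strand. Capitals mark matches, on either strand, to the single site AGGTCA and to its direct repeat with 1 base between, AGGNCANAGGNCA. A part of a repeat can also match the single site.
Ehhadh: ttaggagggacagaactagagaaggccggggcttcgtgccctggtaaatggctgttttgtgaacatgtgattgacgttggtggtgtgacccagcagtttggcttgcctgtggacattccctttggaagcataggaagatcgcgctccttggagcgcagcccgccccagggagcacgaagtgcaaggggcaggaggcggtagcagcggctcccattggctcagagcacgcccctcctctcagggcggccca
Fabp1: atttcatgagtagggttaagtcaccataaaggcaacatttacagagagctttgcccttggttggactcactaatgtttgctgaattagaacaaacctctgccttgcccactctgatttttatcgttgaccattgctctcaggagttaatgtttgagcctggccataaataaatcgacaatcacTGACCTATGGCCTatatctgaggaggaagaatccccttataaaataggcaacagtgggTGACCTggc
The Ehhadh window, chr16:21787835-21788084 on the minus strand, holds neither motif. The Fabp1 window, chr6:71199629-71199878 on the plus strand, holds the repeat on the opposite strand 67 bases before the start and a further single site 9 bases before it. The Slc27a2 window holds 1 single site, 220 bases before the start, and the Acaa1b window holds none. Of 32851 windows of this length in the table, 14% hold the single site and 0.338% hold the repeat. These matches describe letters in a window and do not show binding.

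Beyond these genes the changes of fatty acid oxidation were small. Of 25 tested genes of peroxisomal beta-oxidation, 1 was called, Ehhadh, 6 had an unadjusted p under 0.05, all higher, and the median change was 0.09, against 0.004 over all genes tested. With litter 1 of both groups left out, 6 again had such a p, and the median was 0.02, against 0.002 over all genes. Apart from Ehhadh, Acaa1b and Slc27a2 these were the thioesterase Acot3, at a change of 0.39, and the isomerases Eci2 and Ech1, at changes of 0.25 and 0.25. Of 19 genes of mitochondrial beta-oxidation and ketone body formation, none was called, 4 had an unadjusted p under 0.05, all higher, and the median change was 0.12. Of these 19, 2 had such a p without litter 1 of both groups, with a median of 0.11. Bdh1, which interconverts the ketone bodies, had the largest change of them, at 0.56 (95% interval 0.16 to 0.96, limma adjusted p = 0.978). Cpt1a, the carnitine transferase that admits fatty acids to the mitochondrion, changed by 0.12 with an interval of -0.04 to 0.27. Its dimmer probe sets had changes of 0.18 with groups apart and 0.08 with overlapping groups, and neither was called. The smallest change that could have been called, from each gene's own spread, had a median of 0.62 for the peroxisomal and 0.52 for the mitochondrial list, so changes of the sizes seen for most members were below the limit of this comparison.

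Genes that carry, store or release fatty acids gave no call. Of 23 tested, 4 had an unadjusted p under 0.05, all higher, and the median change was 0.07. Angptl4, a secreted inhibitor of lipoprotein lipase, had levels of 6.46, 6.13, 6.52, 6.03 and 6.18 in exposed litters 1 to 5, against 5.36, 5.76, 5.75, 6.15 and 5.43 in unexposed litters 1 to 5. Unexposed litter 4 lay among the exposed litters, the change was 0.57 (95% interval 0.29 to 0.86, limma adjusted p = 0.730), and a second, dim probe set had a change of -0.14. The brighter Angptl4 probe set had a change of 0.44 without litter 1 of both groups (adjusted p = 0.940). Pdk4, a kinase that turns off pyruvate oxidation, changed by 0.45 with overlapping groups. Plin2, the coat protein of lipid droplets, averaged 9.59 ± 0.10 in exposed and 9.52 ± 0.09 in unexposed lungs (SD, n = 5 litters each), with an interval of -0.06 to 0.20 for the change. Cd36, a fatty acid transporter of endothelium and macrophages, averaged 9.98 ± 0.19 in exposed and 10.01 ± 0.14 in unexposed lungs, with an interval of -0.26 to 0.19. Ppara and Pparg, the receptors themselves, had changes of 0.05 and 0.05, and none of 12 tested lipid nuclear receptors and partners had an unadjusted p under 0.05.

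Synthesis of fatty acids, cholesterol and surfactant phospholipid showed no call either. None of 20 tested genes of fatty acid and triglyceride synthesis and none of 19 of cholesterol synthesis and uptake had an unadjusted p under 0.05, with median changes of 0.01 and -0.05. Fasn, the fatty acid synthase, had an interval of -0.26 to 0.14, and Scd1, the desaturase, one of -0.31 to 0.46. Of 32 genes of surfactant phospholipid synthesis and turnover, 4 had an unadjusted p under 0.05, all higher: Pctp, Lpin1, Abca1 and Lpcat3. Only 1 of the 32 had such a p without litter 1 of both groups, and the median change was then 0.01, against 0.04 with it. Abca1, a lipid exporter, was at 10.33 to 10.52 in exposed and 9.86 to 10.28 in unexposed litters, a change of 0.27, which was 0.18 without litter 1 of both groups. Pcyt1a, the rate-limiting enzyme of phosphatidylcholine synthesis, averaged 7.89 ± 0.11 in exposed and 7.91 ± 0.10 in unexposed lungs (SD, n = 5 litters each), with an interval of -0.16 to 0.12. Over all lipid lists, 156 of 166 matched genes passed the filter and 2 were called. Of the 156, 20 had an unadjusted p under 0.05, all of them higher, and 10 had groups that did not overlap. Over all genes tested, 0.0155% were called, 2.86% were higher at such a p and 0.551% stood higher with groups apart. Without litter 1 of both groups 1 lipid gene was called and 15 lipid genes had such a p, all higher. Genes such as Cyp4a14 passed the filter through the exposed litters, so these counts describe the tested members and support no test.

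**Figure D2:**
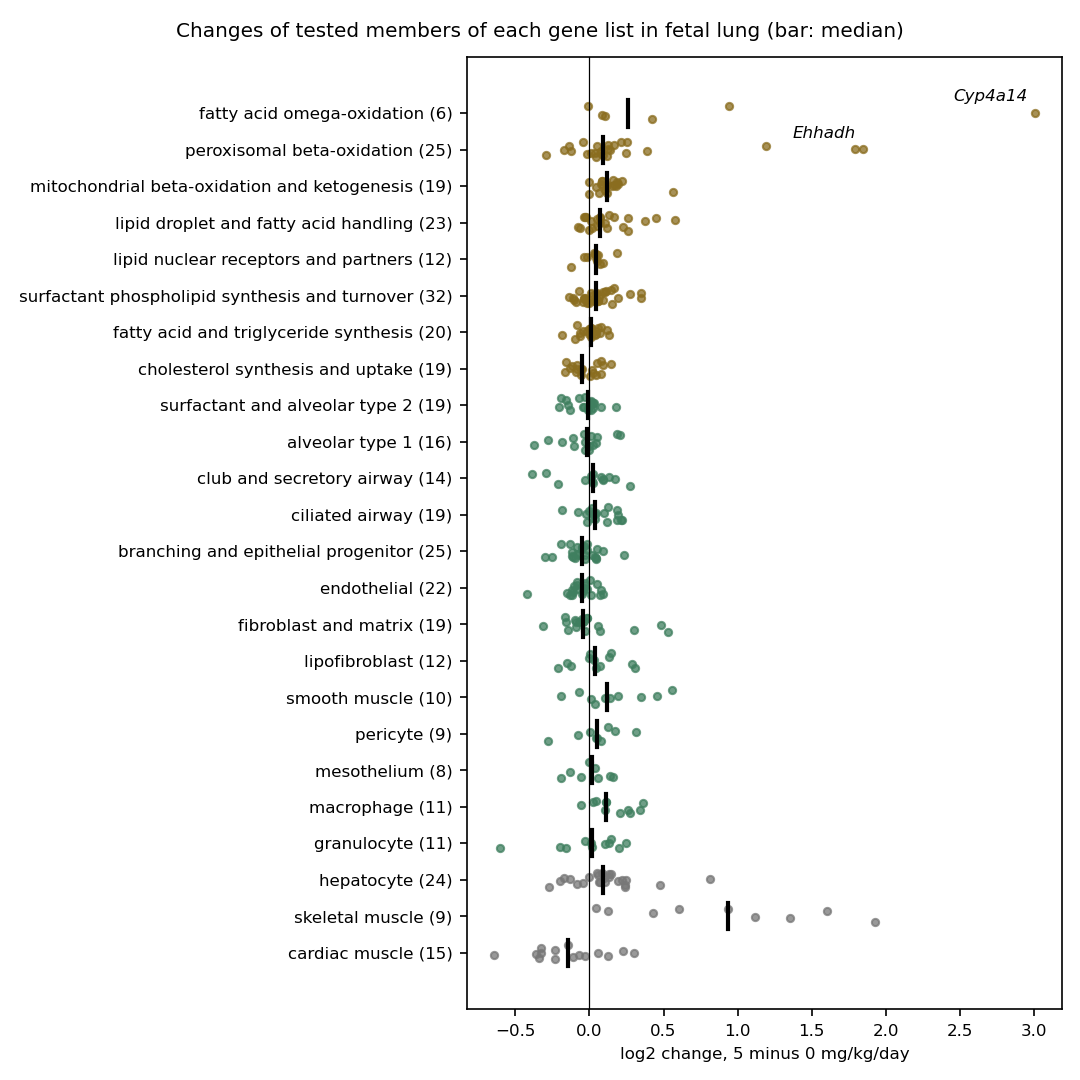
Log2 change, 5 minus 0 mg/kg/day (x axis), of every tested member (points) of 24 gene lists (rows, with the number of members), lipid lists in brown, lung cell lists in green and other tissues in grey, with a black bar at each median. Most medians lie near 0; Cyp4a14 and Ehhadh, the called genes, stand far to the right, and the skeletal muscle list has its median at 0.94.

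Surfactant and type 2 cell genes differed little. In pooled bulk RNA, fewer cells of a type and less RNA per cell cannot be told apart, in this list and the other cell lists. None of 19 had an unadjusted p under 0.05, their median change was -0.01, and the 95% interval of all 19 lay within 1 on the log2 scale and that of 15 within 0.5. Sftpa1, a collectin of surfactant, had levels of 12.02, 11.47, 11.45, 11.38 and 11.91 in exposed litters 1 to 5, against 11.80, 11.83, 11.99, 11.93 and 11.30 in unexposed litters 1 to 5. The ranges overlapped almost wholly, and the interval of the change was -0.48 to 0.22. Sftpb, needed to spread surfactant, was at 11.58 to 11.79 in exposed and 11.72 to 12.03 in unexposed litters, a change of -0.21 with an interval of -0.50 to 0.09. Sftpc had an interval of -0.08 to 0.10, the narrowest of the 4 surfactant proteins, near the top of the array's scale, where changes are compressed. Sftpd, the other collectin, had an interval of -0.52 to 0.20. Abca3, which loads phospholipid into lamellar bodies, had one of -0.17 to 0.09. For a surfactant gene of median spread, a change under 0.63 could not have been called.

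Of the lung cell lists, 202 genes were tested and none was called. At an unadjusted p under 0.05, 9 were higher and 5 lower, with a median change of 0.005. Over all genes tested, 2.86% were higher and 1.76% lower at such a p. Without litter 1 of both groups 12 of the 202 were higher and 3 lower, with a median change of 0.01. Over all 12897 genes tested, 311 were then higher and 183 lower. Among 16 type 1 cell genes the one with such a p was Cldn18, a tight junction protein of alveolar cells. It had levels of 10.28, 10.38, 10.25, 10.38 and 10.11 in exposed litters 1 to 5, against 10.48, 10.54, 10.84, 10.74 and 10.67 in unexposed litters 1 to 5. The groups did not overlap, and the change was -0.37 (95% interval -0.58 to -0.17, limma adjusted p = 0.730), while its second probe set had a change of -0.12 with overlapping groups. The change of Cldn18 was -0.42 without litter 1 of both groups (adjusted p = 0.770). Aqp5, Hopx, Ager and Pdpn, further type 1 cell markers, had changes of -0.19, -0.03, -0.03 and 0.19. In the airway lists, Scgb1a1 and Scgb3a2, secretory proteins, had intervals of -0.18 to 0.21 and -0.11 to 0.15. Foxj1, the regulator of ciliated cells, had one of -0.20 to 0.19. Scgb3a1 spread widely, with an SD of 2.09 in exposed litters. Its change of -0.39 (interval -1.91 to 1.13) became 0.47 without litter 1 of both groups. Changes were above 0 for 10 of 14 club and secretory genes and 14 of 19 ciliated genes, against 6700 of 12897 tested. In each list 1 member had an unadjusted p under 0.05, Cyp2f2 at 0.27 and Lrrc23 at 0.21. Neither had it without litter 1 of both groups. Krt15, a keratin of basal cells of stratified epithelia, had levels of 6.76 to 7.97 in exposed and 6.27 to 6.92 in unexposed litters. Its change was 0.72 with an interval of 0.22 to 1.23 (limma adjusted p = 0.978). Of 12 matched basal and neuroendocrine genes only 3 passed the filter, and Krt5, another keratin, changed by 0.14. Of 12 tested stomach and oesophagus genes 1 was higher at an unadjusted p under 0.05, and 3 were without litter 1 of both groups. The tissue source of Krt15 was not tested.

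Genes of branching, vessels and connective tissue gave changes of both signs. Of 25 branching and progenitor genes, 1 was higher and 1 lower at an unadjusted p under 0.05. These were Sox2, of the airway lineage, at 0.23 and Id2, of the growing tips, at -0.25. Without litter 1 of both groups Sox2 was at 0.27 and Id2 at -0.23, and only Sox2 had such a p. Of 22 endothelial genes, Gja5, a connexin of arteries, had such a p, at -0.42, and it was at -0.24 without litter 1 of both groups. Pecam1 and Kdr, pan-endothelial genes, had intervals of -0.19 to 0.12 and -0.28 to 0.04. Of 19 fibroblast and matrix genes, Mfap4, a microfibril protein, was at -0.16, and Eln, elastin, had an interval of -0.18 to 0.12. None of the 19 was higher at an unadjusted p under 0.05 and 1 was lower, while without litter 1 of both groups 4 were higher and 1 lower. The 3 with the largest of these changes, given after their values were seen, were matrix proteins. Lum was at 0.49, and at 1.19 without litter 1 of both groups, Mfap5 at 0.53, and at 0.91 without it, and Dcn at 0.30, and at 0.77 without it. Col1a1 spread widely, with 9.21 to 10.79 in exposed and 10.12 to 11.05 in unexposed litters, and its change of -0.32 became 0.06 without litter 1 of both groups. Abcc9, a regulatory potassium channel subunit found in pericytes, was at 8.69 to 9.03 in exposed and 8.44 to 8.70 in unexposed litters, a change of 0.32 (limma adjusted p = 0.732). Its dimmer probe sets had changes of 0.73 with groups apart and 0.25 with overlapping groups, and neither was called. Smooth muscle genes had a median change of 0.12, and 0.25 without litter 1 of both groups, where 3 of 10 had an unadjusted p under 0.05, and were imprecise, with a limit for a call of 1.28 at the median.

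**Figure D3:**
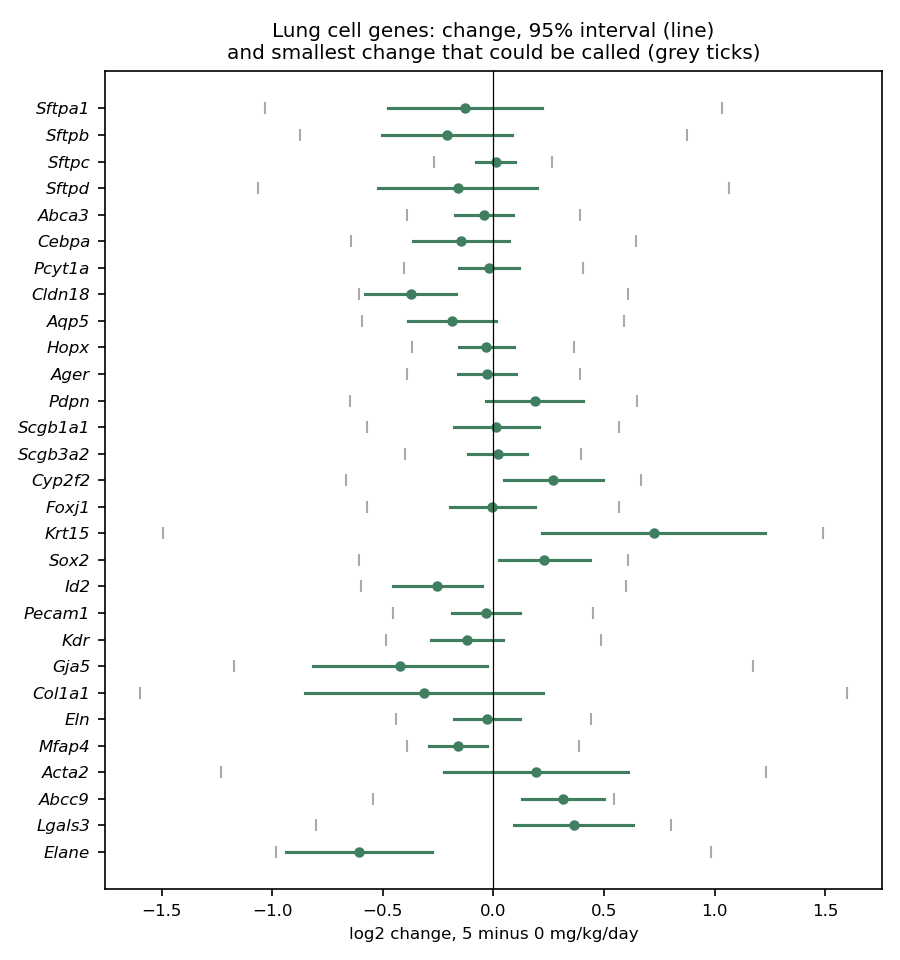
Change (points) with its 95% interval (lines) for 29 lung cell genes (rows), on the log2 scale (x axis), 5 minus 0 mg/kg/day, n = 5 litters per group; grey ticks mark the smallest change that could have been called for each gene. No point passes its ticks; Sftpc has the narrowest interval and Col1a1 one of the widest.

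Against 2.86% higher over all genes tested, 3 of 11 macrophage genes in the blood cell lists had an unadjusted p under 0.05, all higher. These were Lgals3, a lectin also made by epithelium, at 0.36, Cd14, a co-receptor for bacterial lipopolysaccharide, at 0.34, and Csf1r, the growth factor receptor, at 0.26. This held for 1 of the 11 without litter 1 of both groups, Lgals3 at 0.33, while Cd14 was at 0.25 and Csf1r at 0.20. Of 11 granulocyte genes, Elane, neutrophil elastase, was at 4.45 to 4.99 in exposed and 5.2 to 5.68 in unexposed litters, a change of -0.61 with groups apart (limma adjusted p = 0.730), or -0.66 without litter 1 of both groups. With all litters the list did not share this direction, with 7 of its 11 members above 0 and a median change of 0.02. Its median was -0.05 without litter 1 of both groups. Retnla, a secreted protein of the resistin family, had levels of 9.75, 9.28, 9.56, 9.44 and 9.53 in exposed litters 1 to 5, against 10.01, 10.09, 10.13, 9.95 and 9.83 in unexposed litters 1 to 5. The groups lay apart, and the change was -0.49 (95% interval -0.74 to -0.24, limma adjusted p = 0.730), or -0.55 without litter 1 of both groups. Cell cycle genes, 25 in all, had a median change of -0.08 with none at an unadjusted p under 0.05, and glucocorticoid response genes a median of 0.06 over 12 with none.

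Among genes chosen for size, with groups apart and an unadjusted p under 0.01, Lrrc26, an auxiliary subunit of a potassium channel, came nearest to a call after Acaa1b. It was at 5.25 to 5.61 in exposed and 4.88 to 5.16 in unexposed litters, a change of 0.44 (95% interval 0.27 to 0.61, limma adjusted p = 0.170). Cldn2, a pore-forming tight junction protein, and Pappa, a protease of growth factor binding proteins, were higher by 0.51 and 0.46. Each had an adjusted p above the threshold. This Cldn2 probe set averaged 3.88 in unexposed lungs, below the 40th percentile. A second one averaged 4.35 in exposed and 4.24 in unexposed lungs, a change of 0.11 with overlapping groups. The dimmer Pappa probe sets had changes of 0.19 and 0.13, also with overlapping groups. Gng12, a G protein subunit, had the largest negative change of this kind, at 7.12 to 8.19 in exposed and 8.33 to 8.84 in unexposed litters, a change of -0.75 (95% interval -1.27 to -0.22, limma adjusted p = 0.978). Its second probe set, as bright, averaged 8.53 in exposed and 8.51 in unexposed lungs, a change of 0.01 with overlapping groups. None of these passed the test.

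Markers of other tissues were measured in the same lungs. Of 24 hepatocyte markers none had an unadjusted p under 0.05, the median change was 0.09, and none was below the 40th percentile on every array. Their summed linear signal ranged from 9424 to 22300 in exposed and from 6817 to 20680 in unexposed lungs, with litter 1 the highest in both groups, and from 9424 to 13540 and 6817 to 14230 without it. Cyp3a11, a drug-metabolising enzyme of liver and gut, had levels of 11.30, 7.39, 8.18, 6.93 and 7.73 in exposed litters 1 to 5, against 8.44, 5.45, 5.07, 6.53 and 5.99 in unexposed litters 1 to 5. Its groups overlapped only through litter 1 of the unexposed group, and the change was 2.01 (limma adjusted p = 0.978), or 1.80 without litter 1 of both groups.

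Hepatocyte transcripts were present in all these lungs, and the genes that stood higher are abundant in liver. Cyp4a14 lay between 11.80 and 12.18 in exposed and between 9.18 and 10.63 in unexposed livers, and Ehhadh between 11.87 and 12.51 in exposed and between 9.10 and 9.82 in unexposed livers. At 5 mg/kg/day the mean level in lung minus that in liver ran from -5.96 to -1.53 over the 24 hepatocyte markers, with a median of -4.83, or from -6.27 to -1.68 without litter 1 in lung. For Cyp4a14 this difference was -5.16, for Ehhadh -5.62, for Acaa1b -5.64, for Slc27a2 -5.54 and for Fabp1 -4.14, all inside the first range, while Cyp4a12a, at -6.38, lay outside it. At 0 mg/kg/day the markers ran from -5.982 to -1.60 with a median of -4.98. Ehhadh was inside that range, at -4.57. Cyp4a14, at -6.04, Slc27a2, at -5.985, and Cyp4a12a, at -5.983, were just outside. Without litter 1 in lung the markers ran from -6.27 to -1.82. Cyp4a14, at -5.85, Slc27a2, at -6.09, Cyp4a12a, at -5.90, and Ehhadh, at -4.63, were then all inside. With the mean level of the hepatocyte markers as a covariate, 5 genes were called, Cyp4a14, Ehhadh, Acaa1b, Fabp1 and Slc27a2. The covariate carries the markers' level alone, and Cyp4a14 and Ehhadh themselves rose in exposed liver, by 2.13 and 2.90. The part of liver RNA in the results was not tested beyond these values.

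Skeletal muscle markers were higher in most exposed lungs. Of 9 tested, 6 had an unadjusted p under 0.05, all higher, against 2.86% higher over all genes tested. None of the 9 was called, and their median change was 0.94. Without litter 1 of both groups 7 had such a p and the median was 1.05. Myh3, an embryonic myosin, had levels of 2.57, 6.81, 6.04, 7.10 and 5.81 in exposed litters 1 to 5, against 2.57, 2.91, 3.08, 4.45 and 5.67 in unexposed litters 1 to 5. Exposed litter 1 was among the lowest and the other 4 exposed litters lay above all unexposed ones. The summed linear signal of 11 markers, of which 1 stayed below the 40th percentile on every array, ran from 201 to 1262 in exposed and from 230.8 to 579.4 in unexposed lungs. Cardiac markers had a median change of -0.15, which turned to 0.48 without litter 1 of both groups, and none of 15 had an unadjusted p under 0.05 either way. Their sums ran from 2150 to 8668 in exposed and from 2441 to 14490 in unexposed lungs, or from 3418 to 8668 and from 2441 to 7484 without litter 1. With the skeletal muscle level as a covariate, an alternative chosen after its levels were seen, Cyp4a14, Ehhadh and Acaa1b were called. The part of muscle RNA in the other changes was not tested.

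**Figure D4:**
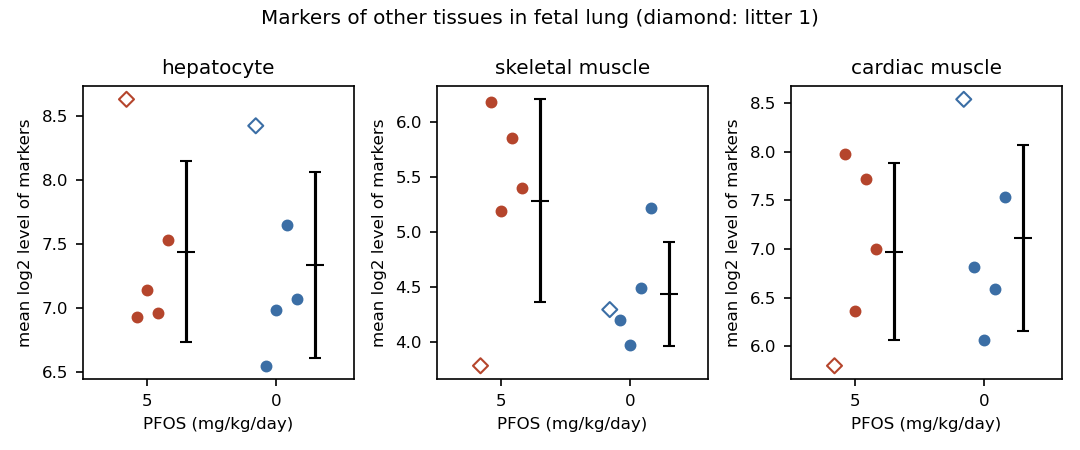
Mean log2 level (y axis, a different range in each panel) of hepatocyte, skeletal muscle and cardiac muscle markers in fetal lung at 5 and 0 mg/kg/day (x axis), 1 point per litter, litter 1 as an open diamond, with a dash and whiskers for the mean ± SD of 5 litters. Hepatocyte levels are highest in litter 1 of both groups, and the skeletal muscle level is lowest in exposed litter 1 and high in the other 4 exposed litters.

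The same exposure gave more calls in liver, 805 of 13269 genes (6.07%). The difference of the changes, lung minus liver, was tested in 1 fit of all 30 arrays. That fit had no term for litter and treated lung and liver arrays as independent. Its intervals, adjusted p and counts make no use of any pairing of the tissues by litter. The difference passed for 260 of 12310 genes tested in both tissues (2.11%). Acot1, a cytosolic thioesterase that is a PPAR alpha target in liver, changed by 0.38 in lung and by 2.98 in liver, a difference of -2.60 (95% interval -3.04 to -2.16, limma adjusted p = 8.175e-09). In lung it was at 8.31 to 8.58 in exposed and 7.68 to 8.37 in unexposed litters, while unexposed livers lay between 6.90 and 7.86, a range that held the lowest unexposed lung, that of litter 1. Pdk4 differed by -1.32 (limma adjusted p = 0.00267), Plin2 by -0.84 (limma adjusted p = 1.036e-05), and Cyp51, an enzyme of cholesterol synthesis, by -0.79 (limma adjusted p = 0.00172). For Cyp4a14 the difference was 0.87 with an interval of 0.04 to 1.71 (limma adjusted p = 0.389), for Ehhadh -1.05 with one of -1.67 to -0.42 (adjusted p = 0.0714), for Acaa1b -0.43 (adjusted p = 0.726) and for Fabp1 1.46 (adjusted p = 0.227), none of which passed.

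**Figure D5:**
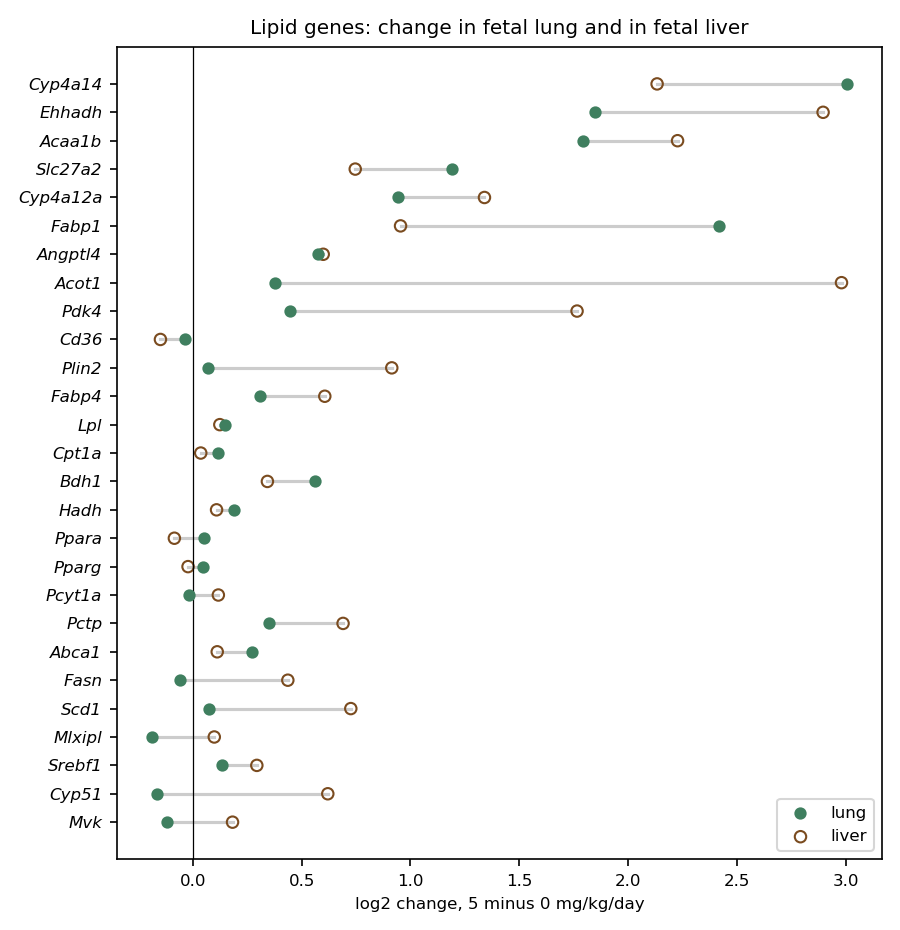
Log2 change, 5 minus 0 mg/kg/day (x axis), of 27 lipid genes (rows) in fetal lung (filled green) and fetal liver (open brown), n = 5 litters per group. Cyp4a14, Ehhadh and Acaa1b lie far to the right in both tissues, and Fabp1 lies at 2.42 in lung and 0.95 in liver. Acot1, Pdk4 and Plin2 lie at 2.98, 1.77 and 0.91 in liver and at 0.38, 0.45 and 0.07 in lung.

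At the higher dose the same genes stood at similar or somewhat higher levels. Cyp4a14 had levels of 6.33, 7.55, 7.71, 7.38 and 8.27 in the litters at 10 mg/kg/day, a difference of 0.59 from 5 mg/kg/day with an interval of -0.11 to 1.30. Ehhadh had 6.62, 7.45, 7.45, 7.60 and 8.14, a difference of 0.81 with an interval of 0.29 to 1.32. None of 12897 genes was called by limma between 10 and 5 mg/kg/day, including Ehhadh at an unadjusted p of 0.00430, and 7 were called between 10 and 0 mg/kg/day (0.0543%), a comparison that shares the unexposed litters.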

How the data were processed

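Affymetrix mouse expression arrays were used for both tissues. The deposited values are log2 levels per probe set, made with RMA per the submitters' processing notes; the sources used here give neither its version nor the set of arrays normalized as one. Per the labels' protocols, only RNA with an integrity number of 8 or more was used. RMA compresses changes at dim and at very bright levels, and the number of arrays, not a read depth, limits the precision.

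Of 45101 probe sets, 34945 carry 1 gene symbol in the platform annotation, 932 several, 9160 none, and 64 are array controls. This gave 18193 genes, each read from its brightest probe set (highest mean of the 30 arrays), and 12897 of them lay above the 40th percentile on at least 5 of the 15 lung arrays. They were fitted with limma 3.58.1 (R 4.3.3) over the 15 lung arrays with 1 mean per dose, two-sided, with Benjamini-Hochberg adjustment over all genes tested. The 45037 probe sets that are not controls were also fitted without a filter. Intervals are 95%, not adjusted for the number of genes. The fit was tested on simulated data. Figures were drawn with matplotlib 3.10.9.

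The members and the 41 gene lists (616 of 658 entries matched) were chosen with earlier results of these data known. Genes were named by rule: called genes, the 2 members of each list with the smallest p, a fixed set, the 10 largest changes each way at an unadjusted p under 0.01 with groups apart, and the 5 largest excesses of litter 1. The text gives a subset, picked with values known. Muscle markers, Xist and Eif2s3y outside the rule were chosen after their values were seen. Alternatives covered filters, probe sets, normalization, weights, variance model, samples in the fit, covariates, the replicate number as a block and each litter left out. Litters are separate per the labels, which do not state whether lung and liver came from the same litters. Eif2s3y was lowest in the same numbers in both tissues. It was at 1.71 in lung and 1.48 in liver of exposed number 5, and at 1.44 and 1.54 in those of unexposed number 4. Pairing of the tissues by litter was not tested.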

Additional observations from a re-analysis of the deposited data

Results flagged for a closer look

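Within 168 groups of 5 litters, 17 values lay further from the rest than the 95% critical gap of Dixon's test, 0.71 of the range, allows; chance alone flags about 1 in 20 groups. Serpina6, Sult2a2, Cyp2c29, Mug1 and Myl2 are among the genes examined because litter 1 exceeded its group most there, so their gaps restate that choice. In exposed lungs, litter 1 stood out for Cyp3a11 at 11.3, Alb at 13.17, Sult2a2 at 7.6, Cyp2c29 at 10.3 and Mug1 at 6.64, where the other 4 exposed litters reached at most 8.18, 12.34, 3.03, 5.78 and 3.11. In unexposed lungs, litter 1 stood out for Serpina6 at 10.94, Sult2a2 at 6.56, Cyp2c29 at 8.84, Mug1 at 6.14 and Myl2, a ventricular myosin, at 7.68, where the other 4 reached at most 4.76, 2.98, 4.12, 2.66 and 3.5. It was also low for Abca1 at 9.86, against 10.19 to 10.28, and high for Cyp51 at 6.28, against 5.88 to 5.99.

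Other single litters stood out by less. In exposed lungs, Hopx was at 12.16 in litter 3, against 12.01 to 12.03, and Scgb1a1 at 12.7 in litter 4, against 12.88 to 12.92. In unexposed lungs, Hopx was at 11.93 in litter 2, against 12.1 to 12.13, Fasn at 9.68 in litter 3, against 9.93 to 10.02, and Sftpa1 at 11.3 in litter 5, against 11.8 to 11.99.

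Of the lipid genes, 4 changed differently in lung than in liver by the test of the difference, lung minus liver. The difference was -2.60 for Acot1, -1.32 for Pdk4, -0.84 for Plin2 and -0.79 for Cyp51, with a smaller change in lung than in liver for Acot1, Pdk4 and Plin2, and a change of -0.17 in lung and 0.62 in liver for Cyp51.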

How the results depend on the processing

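The count of 2 called genes became 4 with both tissues in 1 fit (Acaa1b at an adjusted p of 0.00114 and Fabp1 at 0.00474 were added), 5 with the hepatocyte marker level as a covariate (Acaa1b 0.00131, Slc27a2 0.00131, Fabp1 0.00437), 3 with the skeletal muscle level (Acaa1b 0.0351), and 1 without litter 1 of both groups, where Ehhadh was lost at a change of 1.90. Leaving out each litter in turn gave 2 to 3 genes, with Acaa1b added without exposed litter 4 and Tekt2, named here after its value was seen, without exposed litter 3, and Cyp4a14 and Ehhadh were called in all 10 of these fits, with adjusted p of 0.000416 to 0.0103 and of 0.00170 to 0.0407. The count of 3 called probe sets became 0 with a trended and robust variance model, which left 1951 at an unadjusted p under 0.05 against 2058 before and did not end the call of either gene in the filtered fit, 1 with the replicate number as a block (that of Cyp4a14, with Ehhadh and the shared probe set lost), 2 without litter 1 of both groups (Ehhadh lost), and 2 to 4 with each litter left out, the shared one in all 10. Whether the replicate numbers pair the litters cannot be settled from 5 correlations. Same-numbered deviations correlated from -0.0747 to 0.2741, with 2 of 5 above 0.1, and 2 of 5 litters correlated best with their own number. These were numbers 1 and 3, at 0.2741 and 0.2001. With the block, the change of Cyp4a14 had an adjusted p of 0.000357 and the change of Ehhadh one of 0.0424, and 2 genes were called. No gene given in the text changed sign while called in any alternative, a check that covers called genes only and could hardly fail. Some changes that were not called did change sign without litter 1 of both groups, among them those of Col1a1 and Scgb3a1. The planned covariate from Ddx3y was not run as written, since it has no probe set with a single symbol here; Eif2s3y minus Xist took its place after the data were seen, and 2 genes were called.

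With 5 litters per group, the median gene needed a change of 0.52 to be called, and hepatocyte, cardiac and skeletal markers needed 2.31, 3.30 and 3.09.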
